A study of Mus musculus with 2 samples.

Results

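The 60 genes described here encode ligands and receptors of axon guidance: 14 Eph receptors, 8 ephrins, 20 semaphorins, 9 plexins, 2 neuropilins, 3 Slits, 3 Robos and the netrin receptor Dcc. They were taken by name from the 21938 protein-coding genes that GENCODE vM21 places on chromosomes 1 to 19, X and Y. Each gene was given the binding sites (peaks) of CTCF whose point of highest signal, the summit, lay inside the gene or within 10 kb of either end. This collected 359 of the 62686 peaks in the study's optimal set, and no summit fell into the ranges of 2 of these genes. A peak was called a promoter peak within 1 kb of any annotated start site of its gene, and otherwise an exon, intron or flank peak. No measured value entered the rule for choosing genes, but earlier results of these data were known when they were chosen.

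The peaks came from chromatin immunoprecipitation and sequencing of CTCF-bound DNA in the hindbrain of mice on postnatal day 0. The mice were of the strain B6NCrl, no sex was recorded, and tissue from several dissections went into a single pulverised pool. That pool is named as the source of both libraries of the 1 group, replicates 1 and 2, whose differences may therefore be technical only. No other stage, tissue or genotype was compared, so every contrast below is between genes or between peaks within this tissue and carries no test over samples. CTCF binding does not measure expression, so the tissue label could not be checked against marker genes. A peak from whole hindbrain does not tell which cell types carried it.

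CTCF is a zinc finger protein that binds a long, directional DNA motif, holds the ends of chromatin loops extruded by cohesin, and insulates neighbouring genes from each other's enhancers. Loop ends are usually anchored by motifs that point towards each other. In the growing nervous system, ephrins act on Eph receptors by cell contact, semaphorins act on plexins with neuropilins as co-receptors, and secreted Slits repel axons through Robos. In the hindbrain these cues steer commissural axons at the midline, and Dcc draws them there while Robo3 adjusts their response to Slit.

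Signal is the authors' value for each peak, a score on the scale of their peak caller without a stated unit. In the optimal set it ran from 7.0 to 684.6 with a median of 73.9. The optimal set was selected by the authors for reproducible ranks, and the library lists are far longer, so the presence of all 359 peaks in both lists follows from that choice. Of them, 283 (78.8%) were among the 62686 strongest of both libraries. Their ranks in the libraries had a Spearman correlation of 0.939, a description over peaks already selected for reproducible ranks and from the same tissue. Library depth is not known from these peak lists, and the intervals given with shares and densities (95%) cover counting error over genes or peaks only.

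The DNA under some of these peaks is shown first, because the motif and its direction recur in the results. Both strands were scanned for the CTCF core consensus (14 bp), allowing 2 mismatches, no farther than 50 bp from a summit. The sequences below run 5′ to 3′ on the strand of the match, from the GRCm38 assembly (mm10), with the core in capitals. The first 2 are windows of 101 bases centred on the summits of the strongest promoter peaks of a receptor in the ephrin and in the slit-robo group, at chr9:102354841-102354941 (minus strand) and chr9:37430688-37430788 (plus strand). The next 5 are the cores of the 4 strongest intron sites with a core match and of the strongest promoter site of a semaphorin, with 8 bases to each side. They lie at chr4:136678631-136678660, chr16:59683589-59683618, chr6:32328276-32328305 and chr9:107602213-107602242 on the plus strand and at chr11:35451771-35451800 on the minus strand.
Ephb1 promoter: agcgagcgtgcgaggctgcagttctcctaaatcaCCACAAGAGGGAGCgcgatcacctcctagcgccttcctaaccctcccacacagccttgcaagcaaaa
Robo3 promoter: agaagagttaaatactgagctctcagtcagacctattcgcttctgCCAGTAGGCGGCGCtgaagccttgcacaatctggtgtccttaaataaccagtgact
Ephb2 intron: aatactgaCCAGTAGGTGCCGCtgtgcaac
Epha6 intron: cccttgtgCCACTAGATGGCGGtagagaac
Plxna4 intron: tcctgcagCCAGTAGGTGGCAGagctgcaa
Sema3b promoter: agaagcagCCACGAGGGGGCAGtagagacc
Slit3 intron: ctctttggCCAGCAGGTGGCAGcctggaga

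The Epha6, Plxna4 and Slit3 cores matched the consensus without a mismatch, the Ephb2, Sema3b and Robo3 cores with 1 and the Ephb1 core with 2. Other sites of the guidance genes had cores in repeat sequence, as marked by soft masking of the assembly. These 4 examples, shown because their cores share the first 12 of 14 bases, come from chr4:136666141-136666170, chr1:62722715-62722744 and chr6:82916075-82916104 on the plus strand and from chr11:35287794-35287823 on the minus strand.
Ephb2 intron, in a repeat: agtggaagCCAGAAGAGGGCGCtggatccc
Nrp2 intron, in a repeat: ggcaaagcCCAGAAGAGGGCGCcagattcc
Sema4f intron, in a repeat: ctcagaggCCAGAAGAGGGCACtggagccc
Slit3 intron, in a repeat: aacagatgCCAGAAGAGGGCGTcaggcccc

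A promoter peak was present at 43 of the 60 guidance genes, or 71.7% (interval 59.2% to 81.5%). Among all protein-coding genes the share was 39.8%. The guidance genes were longer, with a median length of 42.0 kb against 17.4 kb. They also had more CpG-rich promoters (68.3% against 46.0%) and more often 5 or more annotated start sites (51.7% against 35.7%). When protein-coding genes were weighted to the same mix of these 3 properties, their promoter share was 54.0%, below the interval of the guidance genes. Length was matched by class only, and among genes over 100 kb the guidance genes were longer (median 254 kb against 168 kb). Chromatin state and expression were not part of this weighting.

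The share rose with each of these properties in all protein-coding genes, and the guidance genes followed it in part. Of the 28 guidance genes over 100 kb, 24 had a promoter peak, against 59.6% of protein-coding genes of that length. From 20 to 100 kb it was 9 of 14, against 47.0%, and under 20 kb 10 of 18, against 30.9%. With 5 or more start sites it was 27 of 31, against 60.2%, with 2 to 4 sites 15 of 24, against 34.0%, and with 1 site 1 of 5, against 18.2%. CpG content did not order the guidance genes, with 28 of 41 CpG-rich genes and 15 of 19 CpG-poor ones, where the shares of protein-coding genes were 58.1% and 24.2%. Among the 15 CpG-poor genes with a promoter peak were Sema3b, Sema4a, Plxna2 and Robo1, which have 5 or more start sites. Epha1, Epha6, Sema3d, Sema3g, Sema4f, Nrp1 and Dcc were also among the 15 and have fewer. CpG content was taken at the 5′ end only, and Sema3b, Sema4a and Robo1 had no peak within 1 kb of it.

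At least 1 peak lay in or near 59 of the 60 genes, against 75.5% of protein-coding genes. That share depended on length. Over 100 kb it was 28 of 28 guidance genes against 96.5%, from 20 to 100 kb 14 of 14 against 85.3%, and under 20 kb 17 of 18 against 64.6%. The exception was Plxna3, a plexin receptor for class 3 semaphorins on chromosome X, which had none in the optimal set. Its best start-site peak in the longer list from both libraries together had a signal of 7.3. All 3 of these genes on X, Plxna3, Plxnb3 and Efnb1, lacked a promoter peak, where 20.9% of all X genes had one. Any peak at all was found for 49.8% of X genes. How many X copies the pool held is not known, since no sex was recorded.

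The ephrin group, receptors and ligands together, had a promoter peak at 14 of 22 genes (63.6%, interval 43.0% to 80.3%). The semaphorin-plexin group had one at 24 of 31 (77.4%, 60.2% to 88.6%) and the slit-robo group at 4 of 6 (66.7%, 30.0% to 90.3%). The 3 intervals overlapped throughout, so the groups could not be told apart by this measure. Weighted to each group's own gene properties, the background was 51.6% for the ephrin group and 55.2% for the semaphorin-plexin group. The interval of the semaphorin-plexin group lay above its background, and those of the ephrin and slit-robo groups included theirs.

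Ligands and receptors had similar shares, 21 of 31 and 22 of 29. Within the groups the family shares were spread more widely, but each family is small and their intervals overlapped. All 5 EphB receptors (interval 56.6% to 100%) and all 6 class 4 semaphorins (61.0% to 100%) had a promoter peak, as did all 3 Robos (43.9% to 100%). Among ephrins the count was 3 of 8, with an interval of 13.7% to 69.4%, and among Slits it was 1 of 3 (6.15% to 79.2%). Over all protein-coding genes the share was 39.8%, and no background was weighted to these families. Semaphorins had one at 17 of 20 genes and Eph receptors at 11 of 14, while plexins had one at 6 of 9.

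**Figure D1:**
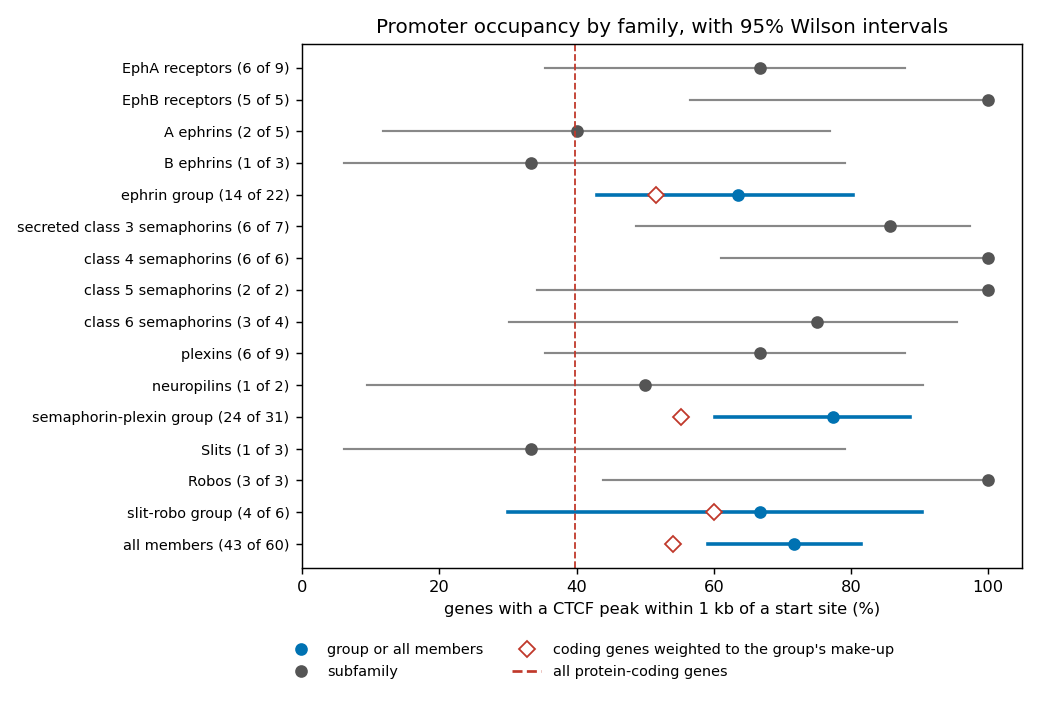
Share of genes with a CTCF promoter peak (percent, horizontal axis) in each group (blue) and subfamily (grey), with 95% Wilson intervals as lines. The dashed line is the share of all protein-coding genes (39.8%) and open diamonds are protein-coding genes weighted to a group's make-up. EphB receptors, class 4 semaphorins and Robos have a promoter peak at every gene, and both ephrin classes and the Slits lie near the dashed line.

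The 71 promoter peaks did not all lie at the 5′ end of the gene, its outermost annotated start. Which start is used most was not measured. A peak within 1 kb of the gene's 5′ end was found for 32 of the 60 genes, against 31.8% of protein-coding genes. The other 11 genes with a promoter peak had it only at an internal start, among them Robo1, Robo2, Robo3, Sema3b, Sema4c and Sema6d. With starts of protein-coding transcripts only, 40 genes had a promoter peak (66.7% against 36.1% of protein-coding genes). Epha7, Sema3b and Sema4f then had none. Promoter summits lay at a median of 364 bp from the nearest start, with 23 of them within 200 bp, 44 upstream and 27 downstream. At 22 of the genes there were 2 or more promoter peaks, against 11.7% of protein-coding genes, a share not matched for number of start sites. The 22 include Ephb2, whose promoter peaks matched a single peak in each library. The limit of 1 kb decided some cases: the Efna1 peak lay just inside it at −999 bp (signal 373.3), and an Efnb1 peak just outside at −1068 bp (266.7).

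Among Eph receptors, the kinases that bind ephrins, Ephb1 had the strongest promoter peak. It lay 198 bp upstream of the gene's start at chr9:102354756-102355043, with a signal of 527.7, and 285.9 and 237.6 in the lists of replicates 1 and 2. That placed it at rank 162 of the optimal set, 229 in replicate 1 and 164 in replicate 2. The remaining 15 Ephb1 peaks were far weaker, with the strongest at 123.1 (66.5 and 56.2 in the replicates). Its 101-base window is the first sequence shown above, and its core ran on the gene's own strand.

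Ephb3, also a receptor for B-type ephrins, had its promoter peak 316 bp upstream of the start with a signal of 272.9 (152.0 and 119.0 in replicates 1 and 2). Ephb6, a receptor without an active kinase, had one at −980 bp with 231.7 (129.0 and 100.7). Epha6 followed at −979 bp with 192.1 (128.7 and 64.0). The first 3 of these 4 receptors carried a core within 50 bp of the summit, and Epha6 did not.

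Ephb2, a receptor that guides commissural and cortical axons, was built the other way round. Its promoter peaks were among the weakest, at 15.0 and 12.3, and both matched a single peak in each library (13.3 and 11.8). Of its 19 peaks, the strong ones were collected in the part of the gene farthest from its start. A peak in an intron at chr4:136678490-136678805, 157.3 kb from the 5′ end, had a signal of 517.3 (288.5 and 228.6 in the replicates). It was flanked by an intron peak of 457.4 at 139.3 kb, which had no core match, and by exon peaks of 368.1 and 435.2 at 184.4 and 186.9 kb in the untranslated end. The 3 strong peaks with a core all had it on the strand opposite to the gene. A flank peak of 354.4 at 5.3 kb upstream had a core without mismatch on the gene's strand, so the outer strong cores pointed towards each other across the gene body.

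The EphA receptors had 35 peaks over 9 genes, and 6 of the 9 had a promoter peak. Epha6 had 8 peaks and carried an intron peak of 439.2 (248.4 and 189.4) at 921.9 kb from its 5′ end, whose core is shown above. Epha4, which mediates repulsion of spinal and hindbrain axons, had a flank peak of 412.5 (235.2 and 180.8) at −1358 bp from its start, and a promoter peak of only 24.1. Epha5 was sparse, with 2 peaks in a gene of 363 kb, both at its start (52.7 and 33.3). Epha2, Epha8 and Epha10 had no promoter peak in the optimal set. In the authors' conservative peak set and with each library alone, Epha10 had one. Epha2 had a single peak, of 36.2, 34.1 kb from its 5′ end. The strongest promoter peaks of the remaining receptors were 105.5 at Epha1, 96.2 at Epha7, 92.6 at Ephb4 and 45.2 at Epha3.

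Ephrins, the membrane-bound ligands, had a promoter peak at 3 of 8 genes (37.5%), near the 39.8% of all protein-coding genes. At the other 5, strong sites stood in the gene or its flanks. Efna1, Efna3 and Efna4, which are anchored to the membrane by a lipid, lie next to each other on chromosome 3. With 10 kb to each side their cluster spans chr3:89261733-89348028 (86.3 kb) and held 8 peaks with a median signal of 353.1, of which 7 had a core match. Efna3 had no promoter peak yet had intron peaks of 379.2 (221.4 and 158.6) and 340.4 (205.1 and 136.4) and a flank peak of 362.5 (210.6 and 150.5). The strongest site of the cluster, at chr3:89340549-89340847, had 478.8 (265.4 and 212.1). It lay at −2656 bp from the start of Efna4 and within 1 kb of a start site of Adam15, so it could be assigned to either gene. The weakest of the 8, at 47.6, lay outside the ranges of the 3 genes.

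Efna1 itself had the strongest promoter peak of the ephrins, 373.3 (214.9 and 159.5). Efnb2, a transmembrane ephrin of neurons and arterial vessels, came next with 349.7 (216.3 and 134.3) at −791 bp. None of the 4 Efnb2 peaks had a core match at 2 mismatches. Efna5, a graded ligand in topographic maps, had a weak promoter peak of 29.4 in its first coding exon (22.1 and 11.9), and among its 7 peaks stronger sites in its flank (353.8) and an intron (320.9). Efna2, with 4 peaks, Efnb1 and Efnb3 had no promoter peak, with strongest sites of 323.3, 266.7 and 164.5, all in flanks.

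Semaphorins held 107 of the peaks. Among the secreted class 3, which act through neuropilins, Sema3b had a promoter peak of 474.9 (274.2 and 201.8) at chr9:107602087-107602370, 65 bp upstream of an internal start and 7.0 kb from the 5′ end. It did not count as a promoter peak when only starts of protein-coding transcripts were used. Sema3f, the ligand preferring Nrp2, had 8 peaks, of which 4 were promoter peaks, the strongest of 364.2 (207.4 and 158.5) in coding sequence near an internal start. Sema3g had a promoter peak of 248.6 that also lay within 1 kb of a start of Nisch, and Sema3d one of 223.9. Sema3a, a repellent of many axon types, had its only promoter peak at an internal start, at 27.4 (19.6 and 7.4). Sema3c had one of 129.3, and Sema3e was the class 3 member without one.

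Sema4c and Sema4f led the membrane-bound class 4, which signals through B plexins and others. Sema4c had a promoter peak of 337.3 (184.2 and 152.4) and, in its downstream flank 10952 bp from its 5′ end, the strongest peak of all 359. That peak, at chr1:36547237-36547566, had 533.9 (296.9 and 237.3) and was within 1 kb of a start of Ankrd39. It ranked 141 in the optimal set, 134 in replicate 1 and 168 in replicate 2. Sema4f had a promoter peak of 300.8 (181.3 and 117.5) and an intron peak of 349.8 (211.5 and 142.5). With starts of protein-coding transcripts only, Sema4f had no promoter peak. Sema4g was the one gene with a core without mismatch within 200 bp of a start. Its peak lay 10 bp upstream of the 5′ end with a signal of 90.6 (54.6 and 36.8), and the core was in repeat sequence. The strongest promoter peaks of the rest of the class were 211.5 at Sema4a, 63.2 at Sema4b and 38.0 at Sema4d.

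Sema6b, a ligand of A plexins, had 6 peaks in a gene of 17.3 kb, and 5 of them had cores, all on the strand opposite to the gene. The strongest was a promoter peak of 306.1 (177.5 and 131.4). Sema6a, also a ligand of A plexins, had a promoter peak of 61.7 and a stronger flank peak at chr18:47370251-47370536, −1521 bp from its start, with 500.1 (281.4 and 219.9). Sema6d had 13 peaks over 578 kb, and its promoter peaks, at internal starts, were weak (37.5 and 33.7). Its strongest site, of 339.7, was in an intron 11.1 kb from the 5′ end. Sema6c and the lipid-anchored Sema7a had no promoter peak, with strongest flank sites of 330.3 and 365.1. Sema5b had 8 peaks, of which a promoter peak at −731 bp had 246.2 (135.5 and 108.1) and an intron peak 328.6. Sema5a had a promoter peak of 50.6.

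Of the plexins and neuropilins, the semaphorin receptors, Nrp1 had the strongest promoter peak, 276.4 (167.6 and 105.8) at −409 bp. A noncoding exon of Nrp1, 4.8 kb from its 5′ end, had a stronger peak of 386.0 (224.4 and 163.1). Nrp2, the other neuropilin, had 13 peaks and none at a promoter. The upstream ones, at −2041 and −6130 bp from its start, had 232.3 (133.9 and 100.2) and 313.7 (177.0 and 137.0), and 2 peaks lay in coding exons. Both neuropilins had strong sites near their 5′ ends, and only that of Nrp1 fell within 1 kb of a start.

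Plxnb2, a receptor for class 4 semaphorins, had a promoter peak of 251.3 (138.7 and 111.5) with a core without mismatch, 304 bp downstream of an internal start. That start lay in the part of the gene nearer its 3′ end. The Plxnb2 promoter peak near the 5′ end had 58.7. Plxna2 had 3 promoter peaks, the strongest of 178.8 (105.6 and 72.2), and 11 peaks in all. Plxna4, a receptor with Nrp1 for Sema3a, had 14 peaks and a promoter peak of 104.3 (80.8 and 22.3). The replicates differed more for that peak than for the strong ones of the gene. The same gene's strong intron peak at chr6:32328150-32328439, 259.9 kb from the 5′ end, had 431.5 (254.2 and 178.2), and a flank peak at −3387 bp had 308.6 (178.6 and 128.5), with cores pointing towards each other. Plxnc1 had 10 peaks, all at 79.3 or less. Plxna1 and Plxnd1 had promoter peaks of 68.7 and 61.7, and Plxnb1 and Plxnb3 had none. The Plxnd1 peak lay at an internal start in the part of the gene nearer its 3′ end.

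**Figure D2:**
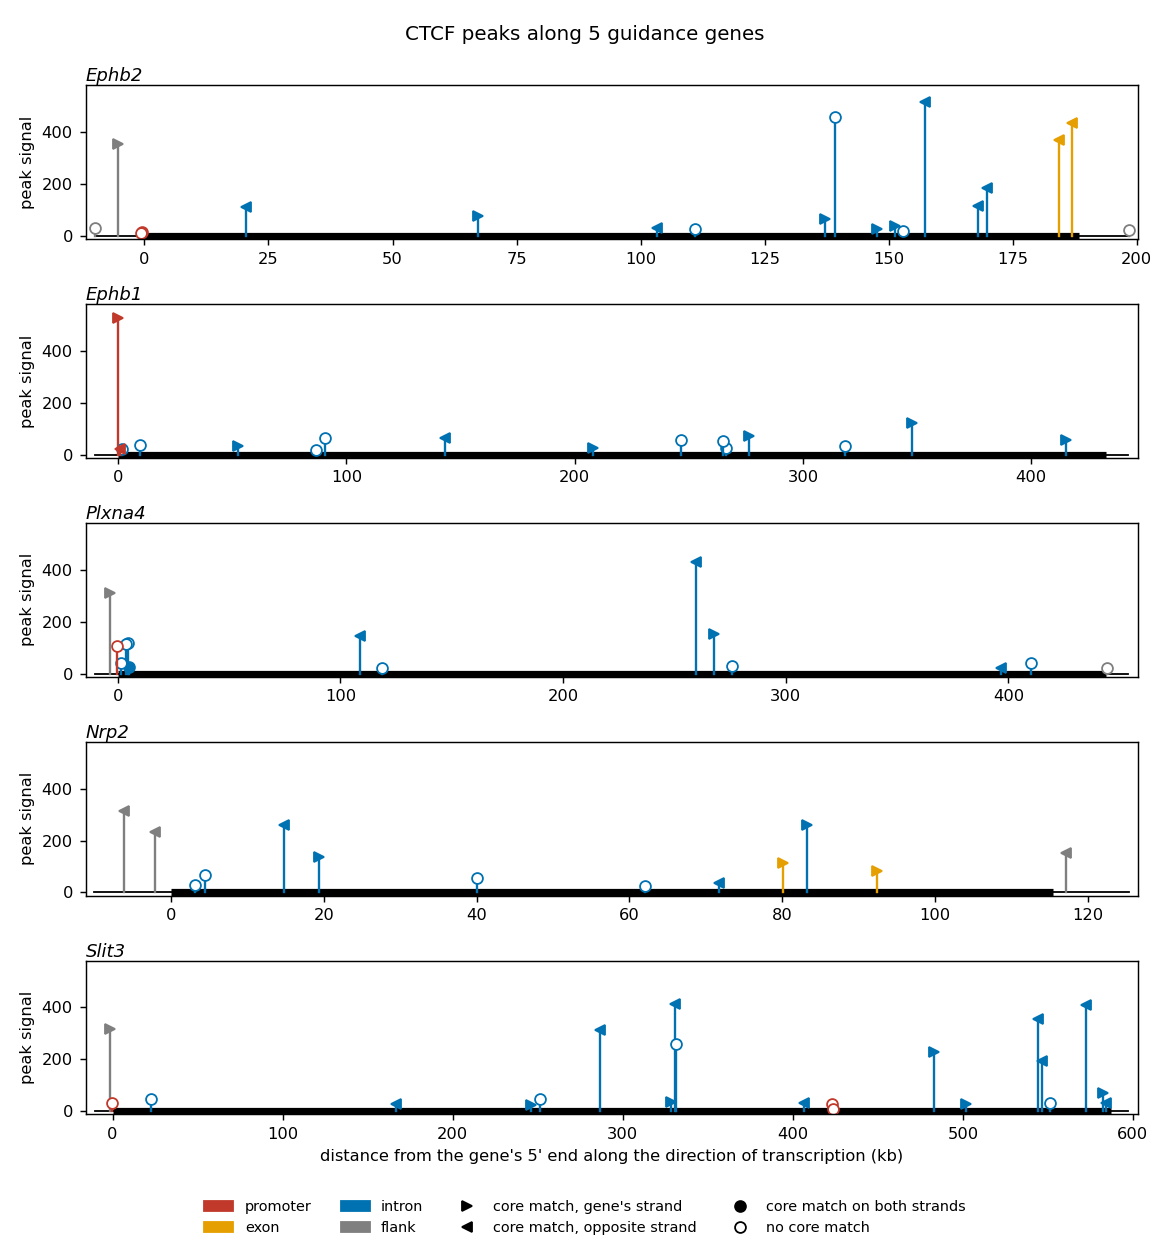
CTCF peaks along Ephb2, Ephb1, Plxna4, Nrp2 and Slit3, by distance from the 5′ end in the direction of transcription (kb) and peak signal (vertical axis). Triangles point the way the core runs, open circles have no core match, and colours give the class. Ephb1 has 1 tall promoter peak (527.7), and Ephb2 and Slit3 have tall peaks far from the start, most of them with cores facing upstream.

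Slit3, a repellent ligand, had the most peaks of all, 21 over 587 kb. Its promoter peaks were weak, at 30.4 (18.1 and 11.4) near the 5′ end and 26.2 and 8.5 at an internal start, where the latter pair matched the same peak of each library (15.9 and 8.7). The strong sites were a flank peak of 316.8 (175.7 and 143.2) at −1627 bp, with its core on the gene's strand, and 4 strong intron peaks with cores on the opposite strand. These 4 had 312.9, 414.9, 354.4 and 411.5, at 286.6, 330.6, 544.0 and 572.1 kb from the 5′ end. A further intron peak of 227.8 (135.9 and 92.1) at 482.9 kb had its core on the gene's own strand, and one of 258.0 at 331.4 kb had no core match. As in Ephb2, an upstream core faced into the gene and most strong distant cores faced back.

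Slit1 and Slit2 had no promoter peak in the optimal set. In the authors' conservative peak set and with replicate 1 alone, Slit1 had one. Slit1 had 9 peaks, and its 3 strongest, in introns, had 368.6 (211.5 and 157.3), 282.8 (158.6 and 124.5) and 335.1 (186.0 and 149.3). All 3 had their core on the opposite strand. Slit2 had 8 peaks, none above 226.0. Robo3, the receptor that lets commissural axons cross the midline, had a promoter peak at an internal start of 386.6 (211.0 and 176.4), and all 5 of its peaks had a core opposite to the gene. Robo1 and Robo2, the main Slit receptors, had promoter peaks of 67.2 (39.0 and 27.6) and 28.5 (19.2 and 9.8). The 2 Robo1 promoter peaks lay about an internal start, 354.8 and 355.4 kb from the 5′ end. The strongest of its 12 peaks, 315.6 and 297.5, were in introns.

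Dcc, the netrin receptor, spans 1097 kb of chromosome 18 and had 7 peaks. The promoter peak, 181 bp upstream, was the strongest at 244.5 (132.7 and 116.9) and had no core match. The intron peaks ran from 32.8 to 135.6. Dcc and Epha5 were the most thinly covered of these genes that had peaks, at 0.626 and 0.523 peaks per 100 kb of gene and flanks.

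Genes of the same pathways outside these families were also counted. Netrins, repulsive guidance molecules and their receptors had a promoter peak at 12 of 20 genes and any peak at 20 of 20. Cytoplasmic effectors of guidance receptors had one at 24 of 36 and any peak at 36 of 36. Over all protein-coding genes these shares were 39.8% and 75.5%, and no background was weighted to either list. The share of the effectors, 66.7%, lay inside the interval of the guidance genes, and so did that of the netrin list. Per length both lists were more densely covered, with 43.2 peaks per Mb (36.6 to 50.6) for the netrin list and 53.5 (47.3 to 60.4) for the effectors, against 30.9 (27.8 to 34.2) for the guidance genes. All protein-coding genes had 35.7 per Mb. Gene length was not matched, with medians of 63.7 kb for the netrin list, 114 kb for the effectors and 42.0 kb for the guidance genes.

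By number, the guidance genes had a median of 5 peaks, against 2 for protein-coding genes. Peaks per gene averaged 5.98, against 4.86 in protein-coding genes weighted to the same length, CpG and start-site classes. The slit-robo group had 60 peaks over 6 genes, against 6.62 per gene, the ephrin group 4.77 against 4.33 and the semaphorin-plexin group 6.03 against 4.89. Per length the order changed. The guidance genes had 30.9 peaks per Mb (27.8 to 34.2), against 35.7 for protein-coding genes, but the 28 genes over 100 kb made up most of their sequence. Those over 100 kb had 22.6 per Mb (19.8 to 25.7), below the 26.4 of protein-coding genes in that length class. Guidance genes of 20 to 100 kb had 96.5 (75.2 to 122) against 45.5, and those under 20 kb had 96.7 (73.1 to 126) against 54.2. Within these classes the shorter guidance genes were more densely covered than protein-coding genes, and the longest less. Length still differed inside each class. Median length was 254 kb against 168 kb over 100 kb and 28.4 kb against 38.3 kb from 20 to 100 kb. Under 20 kb it was 13.2 kb against 7.04 kb. The effect of these differences on density was not tested. The semaphorin-plexin group, at 41.3 per Mb (35.6 to 47.6), exceeded the ephrin group at 29.7 (24.3 to 36.0) with intervals that just overlapped, and the slit-robo group at 24.5 (18.7 to 31.5) without overlap. The slit-robo genes were longest, with a median of 422 kb against 40.2 and 28.4 kb, and protein-coding genes over 100 kb were also less densely covered than all. The 26.4 per Mb of those protein-coding genes lay inside the slit-robo interval.

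By class, 52.6% of the 359 peaks were in introns, 22.3% in flanks, 19.8% at promoters and 5.29% in exons, close to the 50.7%, 19.0%, 24.1% and 6.23% over the 45887 peaks of all protein-coding genes. In genes over 100 kb, intron peaks were spread along the gene, with 26.1%, 20.4%, 23.6% and 29.9% in 4 successive parts of equal length. Median signal was 61.7 at promoters, 64.6 in introns and 148.6 in flanks, against 59.1, 69.8 and 114.9 over all protein-coding genes. Of the 80 flank peaks, 13 lay within 1 kb of a start of another protein-coding gene.

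**Figure D3:**
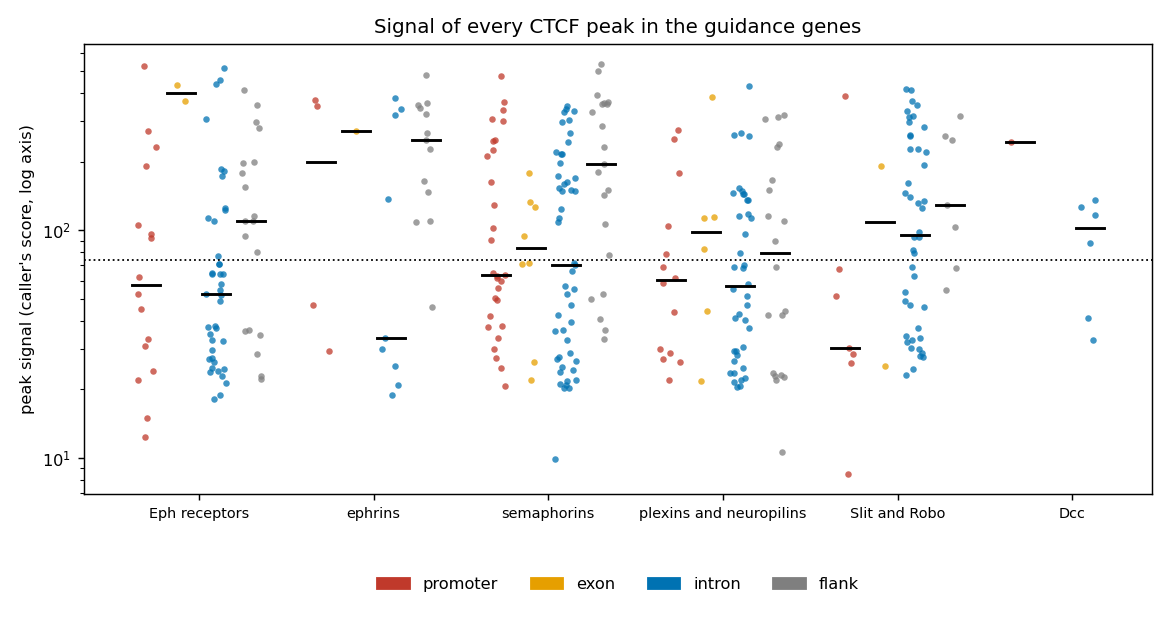
Signal of each CTCF peak (vertical axis, the authors' score) by family of guidance genes, coloured by class, with the median as a black bar. The dotted line is the median of all optimal peaks (73.9), and every family spans weak and strong peaks.

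A core match was found at 224 of the 359 peaks (62.4%, interval 57.3% to 67.3%), against 65.4% of all optimal peaks. In windows 1 kb to each side the share was 1.95%. Median signal was 141.3 with a core and 42.1 in its absence. The core was found at 35 of 71 promoter peaks (49.3%), against 42.9% over promoter peaks of protein-coding genes, and at 119 of 189 intron peaks (63.0%), against 69.2%. In flanks it was at 60 of 80 peaks, against 74.3%, and in exons at 10 of 19, against 65.0%. Cores without a mismatch were at 27 peaks (7.52% against 8.7%). The 6268 strongest optimal peaks included 41 of the 359, or 11.4%, near the 9.98% over protein-coding genes.

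Fewer of these cores lay in repeats than elsewhere, 30 of 224 (13.4%, interval 9.54% to 18.5%) against 23.3% of all optimal peaks with a core. Cores in repeats had a median signal of 63.9 and the others 150.4. The 12 first bases shared by the 4 repeat examples above opened 17 cores (7.59%), against 13.2% of cores in the optimal set, and all 17 lay in repeat sequence. Among promoter cores they opened 0 of 35 (interval 0% to 9.89%), which includes the 7.13% over promoter peaks of protein-coding genes. Repeat content of the guidance genes' non-bound sequence was not compared.

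Cores lay on the gene's strand at 102 of 218 peaks with an unambiguous direction (46.8%, 40.3% to 53.4%), against 50.9% in protein-coding genes, where a peak counts once for each gene it belongs to. The direction changed along the gene. Upstream of the 5′ end, in flank and promoter peaks together, 33 of 47 cores ran with the gene (70.2%, 56.0% to 81.3%), against 52.6% in protein-coding genes. In the part of the gene nearer its 3′ end, 30 of 85 did (35.3%, 26.0% to 45.9%), against 45.4%. Among the strongest 31343 peaks that share was 14 of 54 (25.9%, 16.1% to 38.9%), against 43.6%. In genes over 100 kb alone, the guidance genes did not stand apart: 41.8% of cores nearer the 3′ end ran with the gene (30.7% to 53.7%), against 42.0%, and 57.1% of upstream ones (36.5% to 75.5%), against 63.1%. This split by position was chosen after the maps of single genes had been seen, and those genes are counted in it. The intervals treat cores of the same gene as independent, although single genes held several cores in the same direction.

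Neighbouring cores within a gene's range were paired, giving 161 pairs. Over all distances 26.1% pointed towards each other (19.9% to 33.4%), against 22.3% in protein-coding genes. Of the 64 pairs 20 kb or more apart, 27 pointed towards each other (42.2%, 30.9% to 54.4%), against 26.2% in protein-coding genes. Pairs in guidance genes were wider there, with a median gap of 69.9 kb against 40.0 kb. From 20 to 100 kb it was 16 of 42 (38.1%), against 25.1%, and at 100 kb or more 11 of 22 (30.7% to 69.3%), against 33.2%. Within each of these distance classes the interval reached the background. Under 20 kb the share was 15 of 97 (15.5%, 9.6% to 24.0%), against 20.6%. Pairs share cores with their neighbours and are not independent.

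Among the 17 genes without a promoter peak, 15 had a weaker peak within 1 kb of a start in the longer list from both libraries together, with a median signal of 15.5. For protein-coding genes without a promoter peak that share was 48.6%, with a median of 13.6. The best were Epha10 (36.4), Slit1 (28.9), Efnb3 (24.9), Sema7a (23.9) and Plxnb1 (22.2). Epha8 and Sema3e had no such peak.

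The libraries taken alone gave 45 genes with a promoter peak for replicate 1 and 41 for replicate 2. Only the 62686 strongest peaks of each library were counted here, as many as in the optimal set. Of the 43 genes, 38 were found with each library alone. The other 5 were Epha4, Ephb2, Efna1, Sema3a and Robo2. Efna1 missed the limit in both libraries, where the summit of its strong peak lay at −1006 and −1003 bp. The others rested on weak peaks that were present in both full library lists. Epha4 (24.1) and Ephb2 (15.0) did not count with replicate 1 alone, where their peaks ranked 73095 and 67958, below that cut. Sema3a (27.4) and Robo2 (28.5) did not count with replicate 2 alone, although its full list held a matching peak for each.

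**Figure D4:**
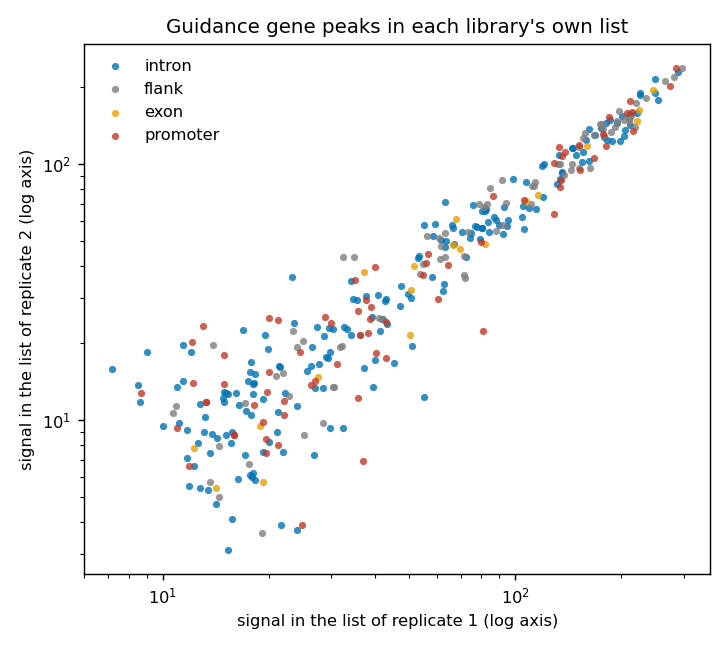
Signal of the 359 guidance gene peaks in the list of replicate 1 (horizontal, log axis) and of replicate 2 (vertical, log axis), coloured by class. Strong peaks lie close to one line and weak ones scatter, with a Spearman correlation of 0.939 over all peaks.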

How the data were processed

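The deposited files are peak lists on mm10 in narrowPeak layout, made by the authors from CTCF and control alignments, per the labels. The signal of a peak is the authors' score without a stated unit, used to rank and describe peaks. The deposited summit offset in bp gave each position. For the aligner, the peak caller and the cutoff of the irreproducible discovery rate (IDR), the version and settings were not given in the sources used here. Control libraries are not analysed here.

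Peaks off chromosomes 1 to 19, X and Y were dropped, 9 in the optimal set. Peaks of the libraries (300000 each) and of the pooled list (251251) were matched to them by overlap. Promoter CpG was the observed over expected ratio in 1001 bp around the 5′ end, rich at 0.6 or more. Weighted backgrounds took length (under 20 kb, 20 to 100 kb, over 100 kb), CpG and start-site classes. Shares have Wilson and densities exact Poisson intervals. Python 3.11.15, pandas 2.3.3, scipy 1.17.1, pysam 0.24.0 and samtools 1.23.1 were used, and the scripts were tested on simulated data. With 1 group there was no test between conditions.

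The genes and lists were chosen with earlier results of these data known. All 60 genes are accounted for. Named in full are up to 4 genes per family with the strongest promoter peak, genes without any peak, the 3 genes per family with most peaks, the 10 strongest peaks, and peaks within 200 bp of a start with a core without mismatch. Other sites named were chosen after their values were seen. Alternatives were other peak sets, each library alone, other promoter, flank and motif limits and other start-site annotations.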

Additional observations from a re-analysis of the deposited data

How the results depend on the processing

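Guidance genes had a higher promoter share than protein-coding genes under each of the 10 alternatives to the peak set or the promoter definition, from 43.3% against 20.2% with the strongest 31343 peaks to 85.0% against 49.2% with promoters of 2.5 kb. Merging summits under 150 bp apart, 1 of the 10, left the shares unchanged at 71.7% against 39.8%. The weighted background was not recomputed under the alternatives. Counts fell with the strongest 31343 peaks: 26 genes had a promoter peak (ephrin group 9, semaphorin-plexin group 15, slit-robo group 1), 182 peaks remained (15.6 per Mb), 46.7% of them were in introns and 83.5% had a core. The slit-robo count was 2 with promoters of 500 bp and 1 with 5′ ends only. The intron share was 46.0% with promoters of 2.5 kb, 58.5% with flanks of 5 kb and 32.1% with flanks of 50 kb, where there were 588 peaks (36.2 per Mb). The core share was 34.5% at 1 mismatch, 84.7% at 3 and 55.2% within 25 bp of the summit. Leaving out either replicate gave 41 to 45 genes with a promoter peak. Of the 17 genes without a promoter peak, 12 had none in any of the peak sets. The conservative set also gave 43 genes, but with Epha10 and Slit1 gained and Epha4 and Sema3a lost. Epha10 was also gained with each library alone. With replicate 1 alone, Slit1, Efnb3, Sema7a and Plxnb1 were gained. No paired analysis was possible because there is 1 group of samples. Depth is unknown, so weak and missing peaks cannot be told apart from limited sequencing.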
